A study of Cocos nucifera and Zingiber officinale with 11 samples.

Results

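MIR-396 is a family of plant miRNAs, and its members were taken here as every miRNA name with that number, whatever the species prefix, letter or arm. The rule gave 12 of the 418 miRNAs listed for the exosome-like nanoparticles (ELNs) of 11 edible plants, which fall into 189 numbered families. Edible plant-derived ELNs (EPDELNs) are vesicles pelleted from juice by ultracentrifugation, and their small RNA was sequenced in 1 library per plant, with no replicates. The material was blueberry fruit (Vaccinium), coconut fruit (Cocos nucifera), ginger rhizome (Zingiber officinale), grapefruit (Citrus x paradisi), Hami melon fruit (Cucumis melo), kiwifruit (Actinidia chinensis), orange (Citrus reticulata), pear (Pyrus), soybean (Glycine max), tomato (Solanum lycopersicum) and pea. All of it was bought at a local market, and the labels name no treatment of the plants. For 1 library the labels conflict, giving lima bean as title and tissue but pea as description and Lathyrus oleraceus as organism, and it is called pea here. Juice was squeezed by hand from blueberry, grapefruit, kiwifruit, orange and pear and ground in buffer from ginger, Hami melon, pea, soybean and tomato, so method and plant cannot be told apart.

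In plant cells MIR-396 pairs with the mRNAs of growth-regulating factors (GRFs), transcription factors that keep leaf and root cells dividing, and slices them. It is cut from a hairpin precursor whose 5p arm gives the strand that acts on GRF mRNAs and whose 3p arm gives the partner strand. In Arabidopsis, MIR396 genes are switched on by TCP4, a transcription factor that is itself held down by the neighbouring growth regulator MIR-319, so that both families belong to 1 circuit of organ growth. Whether any of this acts in nanoparticles is not measured by these libraries.

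The values are levels in RPM, reads scaled to a common total per library, and each name carries the code of a reference species and not of the plant studied: mtr is Medicago truncatula, osa rice, ptc poplar, ath Arabidopsis thaliana, tae wheat, zma maize and mdm apple. Per the study's methods, reads were assigned at up to 2 mismatches. A name states the reference that reads were assigned to, which need not be the closest. Placed without gaps, 865 of the 950 listed sequences were within 2 mismatches of their own reference. Within a library all RPM values were whole multiples of a common step (tolerance 0.01 of a read), and this step was taken as 1 read. The read total behind RPM then ranged from 236959 in ginger to 6518871 in kiwifruit, and the reads assigned to miRNAs from 4541 in coconut to 377989 in kiwifruit. This total is smaller than the number of filtered reads in the study's own account, so it is not the sequencing depth, and which reads it covers is not given in the sources used here. The smallest listed value was 5 reads, and 7 reads in ginger, so a name that is not listed may still have had a few reads. Intervals at the 95% level cover counting error only, and the spread between preparations of 1 plant was not measured.

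The reference sequences of the forms that carry nearly all reads show how little separates the names. They are printed 5′ to 3′ in DNA letters, with the seed (bases 2 to 8) in capitals.
mtr-MIR-396a-5p: tTCCACAGctttcttgaactt
mtr-MIR-396b-5p: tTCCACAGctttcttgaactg
osa-MIR-396e-5p: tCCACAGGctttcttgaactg
mtr-MIR-396b-3p: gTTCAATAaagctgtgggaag
The a and b forms of the 5p arm differ at the last base only (T21G, with the base of mtr-MIR-396a-5p first, positions counted from its 5′ end, and the base of mtr-MIR-396b-5p last). A read that lacks its last base therefore matches both equally well. Since up to 2 mismatches were allowed, a complete read of either form also lay within the limit for the other. How reads were divided between these names is not given in the sources used here. The rice e form has the same bases as the b form from base 2 on, once 1 of its 2 G bases at positions 7 and 8 is removed, and this added G is a known mark of some monocot forms of MIR-396. Laid against mtr-MIR-396b-3p, with the usual overhang of 2 bases, each of the a and b forms made 17 Watson-Crick pairs and 1 G-U pair over 19 facing bases. The other 3p references, mtr-MIR-396a-3p among them, were not tried.

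Names were grouped by the seed of their reference, not by the seeds of the reads. The 3 names with the seed TCCACAG held 99.5% of the 208173 reads of the family. They are the a-5p and b-5p forms and the apple a form, prefix mdm. The 3p name with the seed TTCAATA followed with 745 reads (0.358%) and the rice e and h forms, seed CCACAGG, with 291 reads (0.140%). Listed sequences can carry another seed, as for mtr-MIR-396b-3p in ginger, blueberry and kiwifruit and for osa-MIR-396h in kiwifruit. The remaining 4 reference seeds stood at 5 to 32 reads each. Names whose reference has the classic GRF-pairing seed thus held almost all reads of the family, although 89.8% of all its reads came from kiwifruit.

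MIR-396 was listed in the nanoparticles of all 11 plants, from almost 50% of the miRNA pool in kiwifruit to a trace in grapefruit. In kiwifruit it was 49.4% of the summed miRNA level (Wilson interval 49.3 to 49.6, 28669 RPM, 186890 reads), and it was the leading family of that library, 1 of 53. In Hami melon it was 9.64% (9.45 to 9.84, 6173 RPM, 8461 reads), placed 3 of 52 families behind MIR-159, a regulator of GAMYB transcription factors that held 44.0%. These were the only libraries above 5%, and they were 5.13-fold apart in share and 4.64-fold apart in RPM.

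A middle group lay between 1% and 4%. MIR-396 was 3.37% in orange (3.29 to 3.46, 1307 RPM), 3.06% in ginger (2.81 to 3.33, 2186 RPM) and 2.97% in pear (2.87 to 3.07, 983 RPM). The intervals of orange and ginger overlapped, as did those of ginger and pear, so the order of these neighbours is not settled. Coconut followed with 2.05% (1.67 to 2.50, 60.2 RPM), which rested on 93 reads, and blueberry with 1.45% (1.37 to 1.54, 554 RPM).

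At the low end, the family was 0.616% in tomato (0.575 to 0.660, 177 RPM, 807 reads) and 0.439% in pea (0.382 to 0.503, 580 RPM, 201 reads). It was 0.0744% in soybean (0.0650 to 0.0852, 397 RPM, 209 reads) and 0.0552% in grapefruit (0.0469 to 0.0650, 115 RPM, 143 reads), and these intervals overlapped. Over the 11 libraries the median share was 2.05% and the mean 6.65% ± 14.4 (SD, n = 11 plants), with 896-fold between the highest and the lowest share. Without kiwifruit that fold was 175. It was 609, with soybean lowest, without 11 families of names classed here as like fragments of other RNAs, a likeness that was not tested. Without those names the median was 3.27%, with listed sequences of 18 nt or longer 3.39%, and with only names within 2 mismatches of the a-5p or b-3p reference, which drops the rice e form, 1.43%. The share passed 1% in 7 libraries (8, 8 and 6 under those settings), and MIR-396 was among the 5 leading families in 3 (kiwifruit, Hami melon and orange).

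**Figure D1:**
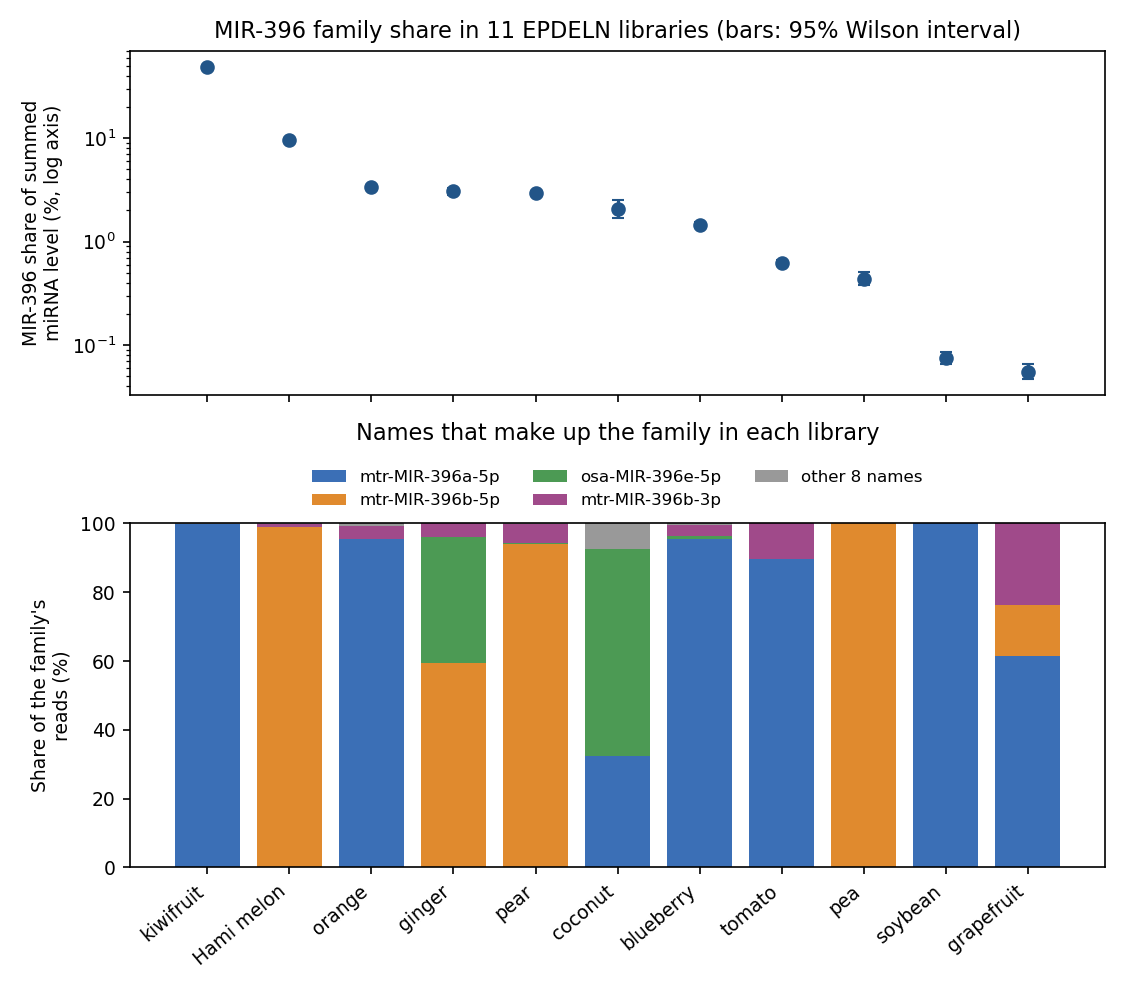
The upper panel plots the MIR-396 share of the summed miRNA level (%, log axis) in each of the 11 libraries with its 95% Wilson interval, and falls from 49.4% in kiwifruit to 0.0552% in grapefruit. The lower panel splits the family's reads by name (%), with mtr-MIR-396a-5p leading 6 libraries, mtr-MIR-396b-5p 4 and osa-MIR-396e-5p only coconut.

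The order by share and the order by RPM were not the same, because miRNAs made up very different parts of the read totals. Coconut had the lowest family level of all, 60.2 RPM (exact Poisson interval 48.6 to 73.7), while its share lay in the middle of the order. Soybean had a higher level than tomato, 397 RPM (345 to 455) against 177 RPM (165 to 190), with a share far below it. Pea and blueberry, at 580 RPM (503 to 666) and 554 RPM (523 to 586), were the only neighbours in RPM whose intervals overlapped. Kiwifruit was highest on both scales, 476-fold above coconut in RPM and 24.1-fold above it in share.

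The family was also compared within the citrus fruits and within the legumes. Orange and grapefruit, both Citrus, were 61.1-fold apart in share and 11.4-fold apart in RPM. The legumes pea and soybean were 5.89-fold apart in share, pea being higher, but 1.46-fold apart in RPM. In grapefruit the leading family was MIR-6478 (35.8%), 1 of the fragment-like names, and without these the share of MIR-396 there was 0.447%, 7.87-fold below orange. With 1 library each, a difference between plants cannot be told apart from one between preparations.

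One of the a or b names of the 5p arm was listed in every library, and in 10 of 11 only one of them. As reads of either form could be assigned to the other name, these counts are of names and not of the forms themselves. The a form, mtr-MIR-396a-5p, was listed in 7 libraries with a median of 397 RPM. It reached 28650 RPM in kiwifruit, where it was the most abundant of 117 miRNAs, and 1249 RPM in orange. It stood at 530 RPM in blueberry, 397 in soybean, 159 in tomato, 70.9 in grapefruit and 19.4 in coconut (30 reads). The kiwifruit value was thus far outside the range of the other 6 libraries.

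The b form, mtr-MIR-396b-5p, was listed in 5 libraries with a median of 923 RPM. It was 6116 RPM in Hami melon, where it ranked 2 of 80 miRNAs, 1300 RPM in ginger, 923 RPM in pear, 580 RPM in pea and 16.9 RPM in grapefruit (21 reads). The a form led the family in kiwifruit, orange, blueberry, tomato, soybean and grapefruit, and the b form in Hami melon, ginger, pear and pea. Grapefruit was the only library to list both, with 88 reads of the a form and 21 of the b form. There the listed b sequence, tCCACAGCtttcttgaactg, had lost its first base but still ended in G, the base that tells b from a.

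Pairs of names that differ by 1 base were also counted, the MIR-396 pairs included, but pairs of unlike names were not counted beside them. Of all 418 miRNAs, 54.8% were listed in 1 library only. Across the whole table, 85 pairs of miRNA names had references of equal length that differed by 1 base, and 43 of these pairs were never listed together. Summed over the 85 pairs, all pairs of names were listed together in 61 of 448 cases in which a library had either name (13.6%). In MIR-396 there were 7 such pairs. The a and b forms were listed together in 1 of the 11 libraries that had either (9.09%), mtr-MIR-396a-5p and ptc-MIR-396g-5p in 2 of 7, mtr-MIR-396b-5p and ptc-MIR-396f in 1 of 5, and the remaining 4 pairs in none.

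**Figure D2:**
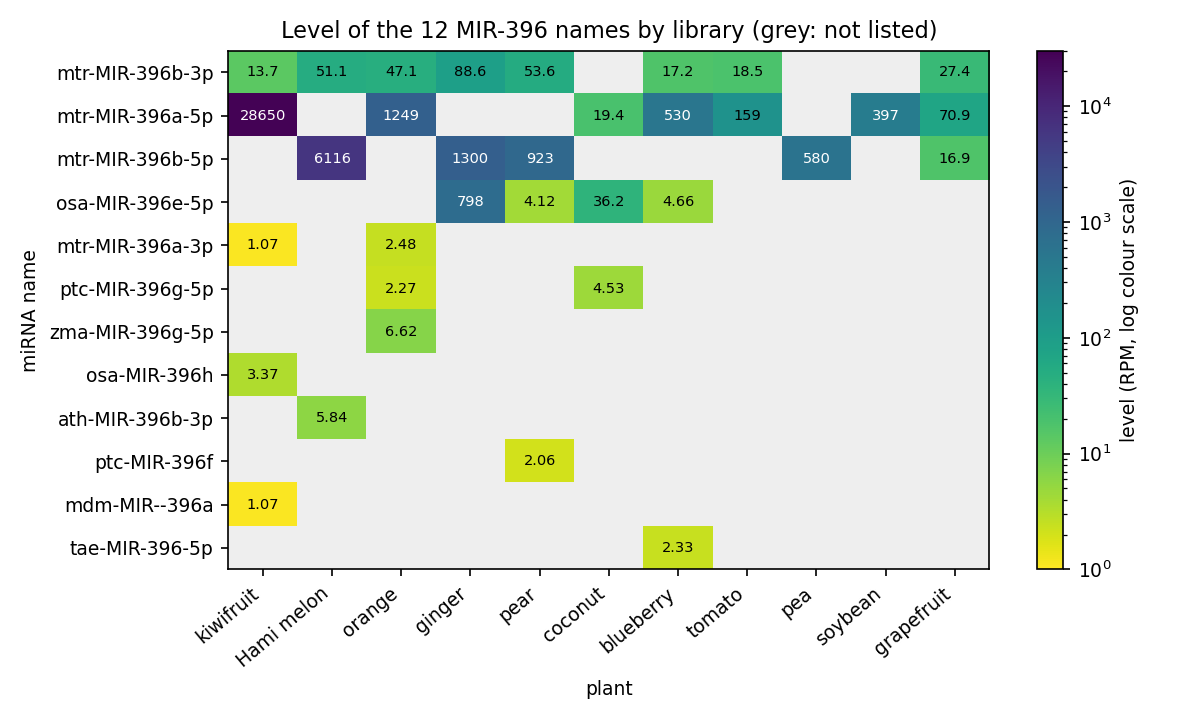
Each cell gives the level of 1 of the 12 MIR-396 names (rows) in 1 library (columns) in RPM, with a log colour scale, and grey cells are names not listed in that library. The a-5p and b-5p rows fill nearly complementary columns, and the lower 8 rows hold values up to 6.62 RPM.

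The rice e form was concentrated in the 2 monocots of the series, coconut and ginger. The level of osa-MIR-396e-5p was 798 RPM in ginger (189 reads), 36.2 RPM in coconut (56 reads), 4.66 RPM in blueberry (10 reads) and 4.12 RPM in pear (14 reads), and it was not listed in the other 7 libraries. Coconut and ginger together held 91.1% of its reads. As a part of the 5p reads, which does not depend on the size of the miRNA pool, it was 60.2% in coconut (Wilson interval 50.1 to 69.6) and 38.0% in ginger (33.9 to 42.4). The same part was 0.869% in blueberry (0.473 to 1.59) and 0.443% in pear (0.264 to 0.743), so the intervals of the monocot and the other libraries were far apart.

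In both monocots the e form stood beside a form with the common seed. In coconut it was 1.87-fold above mtr-MIR-396a-5p, and this was the only library led by the e form. In ginger mtr-MIR-396b-5p was 1.63-fold above it. The listed e sequence was identical to the rice reference in ginger, coconut and blueberry, whereas in pear it was tCCACAGGctactcttgaactg, 22 nt long and 2 edits from the reference. The pattern rests on 1 library of each monocot, with 56 reads in coconut and 189 in ginger.

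The 5p arm was above the 3p arm in all 11 libraries, and both arms varied between plants. Over the 8 libraries that list both arms, summed 5p levels ran from 87.8 RPM in grapefruit to 28654 RPM in kiwifruit (326-fold), and summed 3p levels from 14.7 RPM in kiwifruit to 88.6 RPM in ginger (6.02-fold). Without kiwifruit these ranges were 69.7-fold and 5.14-fold. The 3p range leaves out the 3 libraries with no 3p name listed, and with the smallest level listed for any miRNA put in their place it was 27.4-fold over 11 libraries, beside 476-fold for 5p. Kiwifruit, with the highest 5p level, thus had the lowest 3p level of the 8 in RPM. As a share of the summed miRNA level, 3p was lower in grapefruit (0.0131%) than in kiwifruit (0.0254%). In kiwifruit 186794 reads of the 5p arm stood against 96 of the 3p arm, a ratio of 1946 (exact Clopper-Pearson interval 1593 to 2402). The sequence listed for mtr-MIR-396b-3p in kiwifruit and in blueberry had 2 mismatches to its reference, the limit of the assignment. Reads of the 3p arm with more differences may not have been counted. Whether this lowered the 3p level in these plants was not tested, and the interval does not cover it.

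The other ratios were lower. The ratio was 107 in Hami melon (86.0 to 136), 31.1 in blueberry (22.4 to 44.4), 25.3 in orange (22.3 to 29.0) and 23.7 in ginger (15.3 to 38.6). It was 17.4 in pear (14.9 to 20.3), 8.61 in tomato (6.86 to 10.9) and 3.21 in grapefruit (2.16 to 4.86), with a median of 24.5 over the 8 libraries. In grapefruit, with 109 and 34 reads, the 3p arm was 23.8% of the family, against 0.0514% in kiwifruit. No 3p name was listed in coconut (93 reads of 5p), pea (201) or soybean (209), where the smallest level listed for any miRNA was 3.24, 14.4 and 9.50 RPM.

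**Figure D3:**
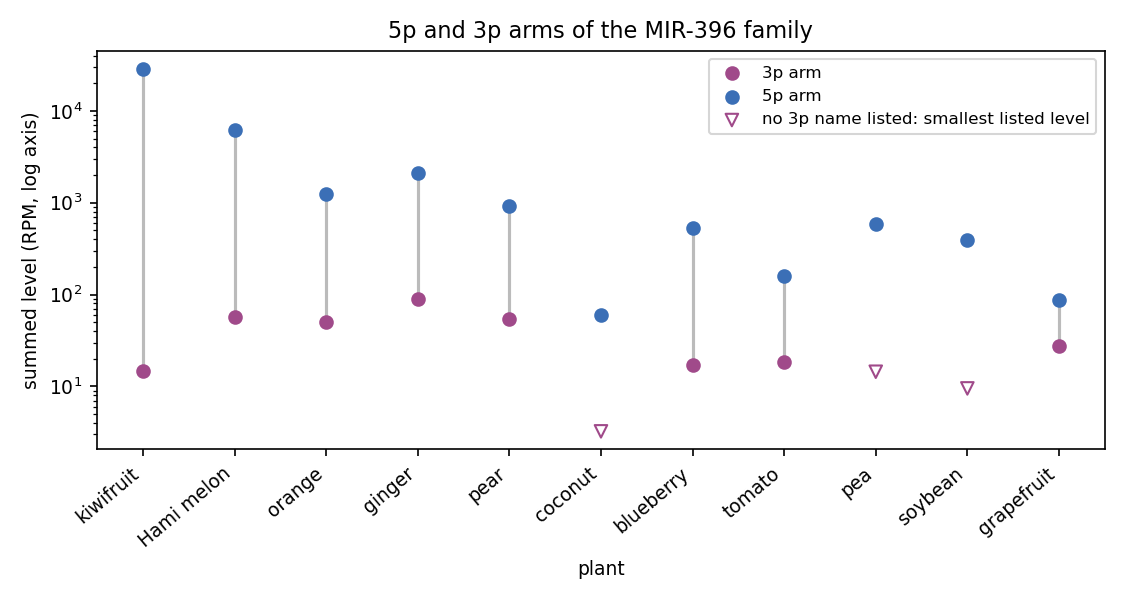
Summed levels of the 5p arm (blue) and the 3p arm (purple) of MIR-396 in RPM (log axis) for each library, joined by a grey line where both are listed, with an open triangle at the smallest level listed for any miRNA where no 3p name is listed. Over the 8 libraries with both arms the 5p points span 326-fold (69.7-fold without kiwifruit) and the 3p points 6.02-fold.

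As shares of the summed miRNA level, the 5p arm was 6.59% ± 14.5 and the 3p arm 0.0592% ± 0.0586 (SD, n = 11 plants), with 3p set to 0 where none was listed. The mean difference was 6.53 percentage points ± 14.5 and the median 2.05. The difference was above 0 in 11 of 11 plants (two-sided exact permutation p = 9.77e-04, the smallest that the 2048 sign flips can give). In coconut, pea and soybean, where no 3p name was listed, its sign was fixed by setting 3p to 0. Without kiwifruit the mean difference was 2.25 points (exact permutation p = 0.00195), so its size, but not its direction, rested on that library. Over the 8 libraries that list both arms, the mean log2 of the 5p to 3p ratio was 5.10 (exact permutation p = 0.00781). It was above 0 in all 8.

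Nearly all of the 3p arm was mtr-MIR-396b-3p, which was the most widespread name of the family, listed in 8 libraries with a median of 37.3 RPM. It was 88.6 RPM in ginger (21 reads), 53.6 in pear, 51.1 in Hami melon, 47.1 in orange, 27.4 in grapefruit, 18.5 in tomato, 17.2 in blueberry and 13.7 in kiwifruit, a range of 6.49-fold. The related 3p names were rare. mtr-MIR-396a-3p was 2.48 RPM in orange (12 reads) and 1.07 RPM in kiwifruit (7 reads), and ath-MIR-396b-3p was 5.84 RPM in Hami melon (8 reads).

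In the 3p arm the sequence listed as most abundant often departed from the reference, and these sequences are shown because 1 name covers them all.
mtr-MIR-396b-3p, Hami melon, orange and grapefruit: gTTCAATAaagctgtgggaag
mtr-MIR-396b-3p, pear and tomato: gTTCAATAaagctgtgggaa
mtr-MIR-396b-3p, ginger: gTTCAATGaagctgtggga
mtr-MIR-396b-3p, blueberry: gTTCGAGAaagctgtgggaag
mtr-MIR-396b-3p, kiwifruit: tCCAAGAAagctgtgggaag
Capitals mark bases 2 to 8 of each listed sequence. With the base of the reference first and positions counted from the reference's 5′ end, ginger had A8G, blueberry A5G and T7G, and kiwifruit T3C and T7G, where the kiwifruit sequence also lacked the first base. Pear and tomato lacked only the last base. T7G also separates the references of mtr-MIR-396a-3p and ath-MIR-396b-3p from that of mtr-MIR-396b-3p. The table lists 1 sequence per name and plant, so the spread of variants behind each name is not seen.

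The 5p names were more often listed with the sequence of their own reference. The arms differ in how many references they have and how near these lie to each other, which the counts do not allow for. The listed sequence was identical to its own reference in 18 of 23 pairs of 5p name and library and in 3 of 11 pairs of 3p name and library. It was identical in all 7 libraries of mtr-MIR-396a-5p, in 4 of 5 of mtr-MIR-396b-5p, in 3 of 4 of osa-MIR-396e-5p and in 3 of 8 of mtr-MIR-396b-3p. In all, 21 of 34 pairs were identical (61.8%), beside 41.9% of the 950 pairs of the whole table, and these pairs held 99.7% of the reads of the family. Of the other 13, 5 were shorter pieces of the reference with no mismatch and 8 had 1 or more mismatches.

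The rest of the family was a set of names with few reads in 1 or 2 plants. Of the 12 names, 6 (50%) were listed in 1 library only, beside 54.8% of all 418 miRNAs, and 4 (33.3%) in 4 or more libraries, beside 15.6% of all. The 6 names of a single library had 5 to 32 reads each. These names have the following references.
ptc-MIR-396f: tTCCACGGctttcttgaactg
mdm form, apple a: tTCCACAGctttcttgaacag
zma-MIR-396g-5p: tCCCACAGctttattgaactg
osa-MIR-396h: tCCACAGGctttcttgaacgg
ath-MIR-396b-3p: gCTCAAGAaagctgtgggaaa
tae-MIR-396-5p: aACTGTGAactcgcggggatg
The first pair is 1 base from mtr-MIR-396b-5p, by A7G in ptc-MIR-396f and T20A in the apple form, the maize form is T2C and C13A from it, and osa-MIR-396h is 1 base from the rice e form. The wheat reference had 14 mismatches to mtr-MIR-396a-5p at its best placement and does not resemble the family beyond its name. In blueberry this wheat name was listed at 2.33 RPM (5 reads) with a piece of 15 nt, tGTGTGAActcgggg, which is 8 edits from its own reference.

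Beside the abundant forms the rare names were very small. In kiwifruit, the apple a form was 1.07 RPM (7 reads) and osa-MIR-396h 3.37 RPM (22 reads), beside 186765 reads of mtr-MIR-396a-5p. The sequence listed there for osa-MIR-396h, tTCCACAGgtttcttgaacgg, had the seed of the a and b forms rather than that of its own reference. It was 2 edits from its own reference and 3 from mtr-MIR-396a-5p. Counted in edits, it was as near to mtr-MIR-396b-5p and the apple a form as to its own reference. Placed without gaps, it had 6 mismatches to its own reference and 3 to mtr-MIR-396a-5p. In orange, zma-MIR-396g-5p was 6.62 RPM (32 reads), listed as cCCACAGCtttattgaacac with T20A and G21C from its reference, and in pear ptc-MIR-396f was 2.06 RPM (7 reads). The poplar form ptc-MIR-396g-5p, which carries A7G inside the common seed, was 4.53 RPM in coconut (7 reads) and 2.27 RPM in orange (11 reads), identical to its reference in both.

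The families listed in every library were 11, among them the fragment-like MIR-5054, MIR-5072 and MIR-8175, which are kept in the ranks below. MIR-396 was 1 of these 11. By median share it ranked 4 among these, after MIR-166 (11.2%), MIR-159 (6.88%) and MIR-5054 (4.10%). By the fold between its highest and lowest share, 896, it ranked 2, after MIR-319 (1619). Each of these spreads rested on 1 library. Without kiwifruit the fold of MIR-396 was 175, ranked 6 of 11, and without ginger that of MIR-319 was 224, also ranked 6. With each family's own highest library left out, MIR-159 ranked 1 (415-fold), MIR-319 3 and MIR-396 4. MIR-166 pairs with the mRNAs of class III HD-ZIP transcription factors, and its spread of 61.9-fold over all libraries was the smallest of the 11.

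MIR-319, the regulator of TCP factors, was listed under 10 names, and a different plant was richest in it. Its share was 48.2% in ginger, where it led the library, 6.67% in Hami melon, 6.35% in pea, 3.76% in soybean and 2.66% in coconut. It was 1.28% in orange, 1.05% in blueberry, 0.672% in kiwifruit, 0.191% in pear, 0.0324% in grapefruit and 0.0298% in tomato. MIR-396 was above it in 7 libraries, by 73.6-fold in kiwifruit, 20.7-fold in tomato and 15.5-fold in pear. It was below it in ginger (ratio 0.0634), pea (0.0690), soybean (0.0198) and coconut (0.769).

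Of all families listed in at least 8 libraries, MIR-162, the regulator of DICER-LIKE1, had a share that ordered the plants most like MIR-396. Its Spearman rho with the share of MIR-396 was 0.527 and its Pearson r 0.673 over 11 libraries, with its highest share, 5.38%, also in kiwifruit. MIR-164, a regulator of NAC factors, followed with rho 0.409 and MIR-168, a regulator of ARGONAUTE1, with 0.355, whereas MIR-319 had 0.245. These are descriptions, since shares of 1 library add up to a whole and points share depth and preparation.

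**Figure D4:**
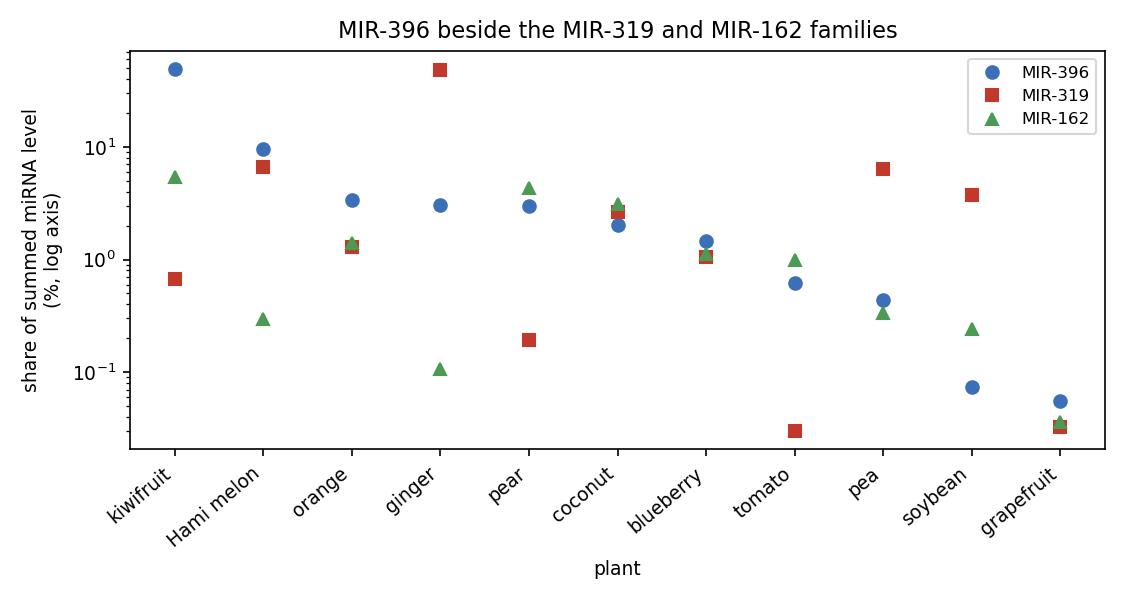
Shares of the summed miRNA level (%, log axis) of MIR-396 (blue circles), MIR-319 (red squares) and MIR-162 (green triangles) in the 11 libraries, ordered by the share of MIR-396. MIR-319 is highest in ginger at 48.2%, where MIR-396 is 3.06%, and MIR-396 is highest in kiwifruit at 49.4%, where MIR-319 is 0.672%.

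More MIR-396 names were listed in the libraries with larger read totals. There were 5 names in kiwifruit and orange, 4 in blueberry and pear, 3 in coconut, ginger, grapefruit and Hami melon, 2 in tomato and 1 each in pea and soybean. With the log10 of the read total, the number of names had Pearson r = 0.680 (permutation p = 0.0228, adjusted over 2 relations 0.0456, n = 11) and Spearman rho = 0.698 (permutation p = 0.0199, adjusted 0.0398). Without ginger and pea, the libraries farthest from the median total, r was 0.728 (exact permutation p = 0.0271, adjusted 0.0542, n = 9), so the adjusted call was lost.

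This relation was close to the limit of the test. The adjusted permutation p stayed under 0.05 without ginger (0.0109) or tomato (0.00606) and passed it without any of the other 9 libraries, up to 0.148 without pea, where r was 0.588. With names of at least 29.5 RPM, a level that could be listed at every read total, r was -0.255 (adjusted permutation p = 0.461). The single-library names, at 5 to 32 reads, lie near the listing limit, and whether they are missing from the libraries with small read totals was not tested. The read total is that behind RPM and not the depth of sequencing, so these relations say nothing of depth itself.

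The share of the family itself had Pearson r = 0.444 with the log10 of the read total (permutation p = 0.171, adjusted 0.171, n = 11) and Spearman rho = 0.473 (permutation p = 0.146). Without ginger and pea r was 0.498 (exact permutation p = 0.160, n = 9). Without kiwifruit, which had both the largest read total and the largest share, r was 0.116 (adjusted permutation p = 0.768), and with the read total itself in place of its log10 it was 0.640 (adjusted permutation p = 0.0353). The squeezed and the ground plants, 5 libraries each, were too few for a value within each set, and none was computed.

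**Figure D5:**
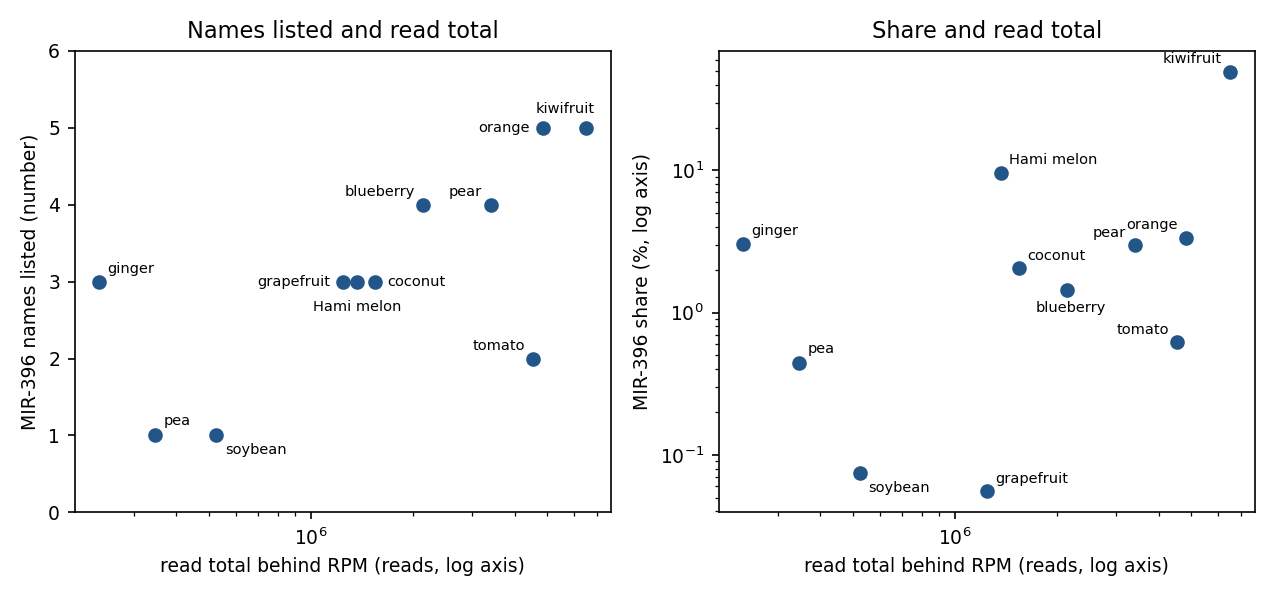
The left panel plots the number of MIR-396 names listed and the right panel the MIR-396 share (%, log axis) against the read total behind RPM (reads, log axis), 1 point per library. The names range from 1 in pea and soybean to 5 in orange and kiwifruit, and kiwifruit is the point at the upper right in both panels.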

How the data were processed

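Per the study's methods, the authors removed low-quality, repeat and adaptor reads, matched the rest to the known plant sequences of miRBase 21 with MIRPIPE (2 mismatches allowed), and deposited levels in RPM with the most abundant sequence per miRNA and library. Which reads the RPM total covers is not given in the sources used here. The merged table was used, and all 950 values were the same in the single-library files (relative tolerance 1e-08). No normalization was added. Read counts were recovered from the RPM steps.

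Sequences were slid along their references without gaps to count mismatches, and edits were counted as insertions, deletions and substitutions. Arms were taken from the name or, for ptc-MIR-396f, osa-MIR-396h and the apple a form (prefix mdm), from the sequence. Intervals were Wilson (shares), Poisson (RPM) and Clopper-Pearson (arm ratios).

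The library was the unit, and plants were not compared by tests, since each has 1 library. Arms were compared by a sign-flip permutation test. Relations with the read total used 100000 permutations and Benjamini-Hochberg adjustment over 2 relations.

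Named are every MIR-396 name, MIR-319, the 3 families most like MIR-396 by Spearman rho among those of 8 or more libraries, and the leading family where rank is given. Any other family or library named was picked with its values known. The members, lists and tests were chosen with earlier results of these data known. Alternatives were other denominators, detection limits, membership, scales and depth measures, and leaving out each library (for the fold between shares, chosen after seeing the data). Read recovery, mismatch counts and tests were tested on simulated data. Software was matplotlib 3.10.9, scipy 1.17.1, pandas 2.3.3, numpy 2.4.6 and Python 3.11.15. Precursors, genome positions and targets were not analysed here.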

Additional observations from a re-analysis of the deposited data

How the results depend on the processing

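The difference between the arms of MIR-396 kept its direction and call in all 5 alternatives and without each library in turn (2.25 to 7.18 points, exact permutation p = 0.00195). The median share of 2.05% became 3.27% without the fragment-like names, 3.39% with sequences of 18 nt or longer only and 1.43% with only names within 2 mismatches of the a-5p or b-3p reference, a rule that drops the rice e form. Under these settings coconut moved to 3.27%, 3.76% and 0.815%, ginger to 4.84%, 3.85% and 1.94%, grapefruit to 0.447%, 0.0990% and no change, and tomato to 1.86%, 1.09% and no change. Soybean then became the lowest library under the first 2 settings, and kiwifruit stayed highest under all.

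The relation of the number of names with the read total lost its call with miRNA reads in place of the read total (r = 0.177, adjusted permutation p = 0.611) and with at least 10 reads (r = 0.518, 0.171). It turned to r = -0.255 with at least 29.5 RPM (0.461), and ranged from 0.588 to 0.838 leaving out each library. That of the share passed the threshold with the unlogged read total (r = 0.640, adjusted permutation p = 0.0353) and otherwise missed it, with r from 0.116 to 0.521 leaving out each library.

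Plants could not be compared in pairs, because each has 1 library and the labels give no replicate numbers to pair them by. The arms were compared in pairs, within each library. A library of 4541 miRNA reads, as in coconut, limits which rare names can be seen.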
